A study of Homo sapiens with 12 samples.

Results

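The nuclear-encoded genes of the mitochondrial respiratory chain were analysed in SU-DHL-4, an established diffuse large B-cell lymphoma (DLBCL) cell line, after exposure to a SYK inhibitor, a BET inhibitor or both. Members were the rows of the gene count table whose symbol begins like a subunit gene of complexes I to V (the NDUF, SDH, UQCR, COX and ATP5 families and CYC1). Of 198 rows with such a symbol, 106 named as pseudogenes and 2 antisense genes were left out. A further 6 rows (COX4I2, COX6A2, COX7B2, COX8C and the read-through genes NDUFC2-KCTD14 and ATP5MF-PTCD1) were under 10 counts, which left 84 members of 46863 rows. Of these, 82 passed the filter on low counts and were tested together with all 16835 genes that passed it, while COX7A1 and COX6B2 were too low. The symbol rule also took in NDUFA6-DT, a divergent non-coding transcript beside NDUFA6 that encodes no subunit, so that 83 members are genes of subunits or of their close paralogues.

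SU-DHL-4 cells, labelled as wild type and as derived from a peritoneal effusion, were exposed for 72 h to DMSO (the vehicle control), to Entospletinib (Ento, 1 µM), which blocks the B-cell receptor kinase SYK, to 0.01 µM AZD5153 (AZD), a bivalent inhibitor of BET bromodomain proteins, or to both agents at these concentrations (Ento+AZD). Each of the 4 groups held 3 libraries of polyadenylated RNA, numbered 1 to 3 in every group, and all of them come from a single cell line grown in the same medium. The study describes its data in general as coming from biologically independent samples. The labels do not say whether the libraries of a group were separate cultures. The p-values therefore concern only these libraries, and are set against the spread left after treatment and replicate number were fitted. Counts are shares of a bulk library, so that fewer cells carrying a transcript and less of it per cell cannot be told apart.

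The respiratory chain sits in the inner mitochondrial membrane. Complex I (NADH dehydrogenase) and complex II (succinate dehydrogenase, which is also an enzyme of the TCA cycle) pass electrons to coenzyme Q, complex III passes them on to cytochrome c, complex IV (cytochrome c oxidase) hands them to oxygen, and complex V (ATP synthase) uses the resulting proton gradient to make ATP. Complexes I, III, IV and V are built in part from subunits encoded by mitochondrial DNA, while the remaining subunits, and the whole of complex II, come from nuclear genes. In DLBCL, a high level of oxidative phosphorylation genes is known to mark a group of tumours that depend less on B-cell receptor signalling, in which SYK acts. Transcripts of the mitochondrial subunit genes were not analysed here.

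Total counts lay between 18121993 and 24675830 per library, and the members together took 0.863% to 1.10% of them. All 8 B-cell and germinal centre markers examined were present in every group (summed level 4675 to 8603 CPM, counts scaled to library size, where 1 count is worth 0.0393 to 0.0564 CPM), against 0.534 to 2.31 CPM for T-cell markers and 0.442 to 2.72 CPM for myeloid markers, and CD2, CD3D and KRT8 had 0 counts in all 12 libraries. The list of mesothelial, epithelial and stromal markers summed to 16.9 to 44.8 CPM with DMSO and 36.2 to 87.7 CPM with Ento+AZD, nearly all of it from PECAM1, which was higher with Ento+AZD (log2 fold change 0.81 ± 0.18 SE, edgeR, adjusted p = 0.00261). The mitochondrial ribosomal RNA RNR2 took 1.55% to 1.83% of the counts with DMSO and 2.15% to 2.56% with Ento+AZD. The part of RNR2 and of PECAM1 in the results was not tested. Libraries with the same number deviated together in all groups, and the replicate number was therefore a term of the model. Among the Ento+AZD libraries, replicate 2 held the lowest level of 75 of the 82 tested members, so the main counts and medians are also given without it where they change.

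Promoter sequences are shown for 4 members, chosen after their values and motifs were seen. SDHA, NDUFB4 and ATP5F1C are shown as members that decreased with Ento+AZD and carry the motif described here, and NDUFV3 as the subunit gene with the largest increase. NDUFC1, UQCRH and NDUFV2 decreased as well and have no match. Each is the 250 bases before the transcription start of the RefSeq record on GRCh38.p14, written 5′ to 3′ on the strand of the gene, and the capitals mark matches to an NRF1-type motif on either strand, the letters GCGCA and GCGC with any base between them, as bound by nuclear respiratory factor NRF1.
SDHA, chr5:218070-218319, + strand: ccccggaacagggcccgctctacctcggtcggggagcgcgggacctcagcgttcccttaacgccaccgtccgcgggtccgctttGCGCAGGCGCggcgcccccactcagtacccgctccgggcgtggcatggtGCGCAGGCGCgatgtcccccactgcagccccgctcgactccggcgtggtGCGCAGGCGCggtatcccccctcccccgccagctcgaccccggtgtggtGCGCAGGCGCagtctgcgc
NDUFB4, chr3:120596086-120596335, + strand: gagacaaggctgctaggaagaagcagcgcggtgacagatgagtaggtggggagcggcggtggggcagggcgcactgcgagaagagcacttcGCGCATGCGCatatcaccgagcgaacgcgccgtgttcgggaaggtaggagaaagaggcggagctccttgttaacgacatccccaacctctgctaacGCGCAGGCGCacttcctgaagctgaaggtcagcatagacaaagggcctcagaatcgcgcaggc
ATP5F1C, chr10:7787927-7788176, + strand: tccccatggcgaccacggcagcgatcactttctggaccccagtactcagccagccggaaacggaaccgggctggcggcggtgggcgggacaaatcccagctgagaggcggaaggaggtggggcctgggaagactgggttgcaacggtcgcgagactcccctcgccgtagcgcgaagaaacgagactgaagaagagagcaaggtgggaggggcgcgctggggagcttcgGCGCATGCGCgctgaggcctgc
NDUFV3, chr21:42893059-42893308, + strand: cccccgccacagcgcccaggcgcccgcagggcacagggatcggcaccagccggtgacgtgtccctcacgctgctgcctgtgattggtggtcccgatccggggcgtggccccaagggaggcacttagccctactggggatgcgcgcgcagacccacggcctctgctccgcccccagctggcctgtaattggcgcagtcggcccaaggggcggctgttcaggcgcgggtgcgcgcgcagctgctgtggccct
The SDHA promoter holds 4 matches that begin 166, 117, 68 and 19 bases before the start, each 49 bases from the next. NDUFB4 has 2 matches, 159 and 63 bases before its start, ATP5F1C has 1 at 22 bases, and NDUFV3 has none in this window, whose RefSeq start lies downstream of the start of the gene in GENCODE. Over the window from 250 bases before to 50 bases after the start, the motif occurs in 5.78% of 35116 promoters and in 19.5% of the 82 promoters found for 68 members. The ETS-type motif CCGGAAG, bound by GABP, occurs in 10.3% of all promoters and 26.8% of those of members, the YY1-type motif AAGATGGCG in 1.75% and 13.4%, and the E-box CACGTG in 7.26% and 8.54%. Of the 16 tested members with an NRF1-type match, 6 decreased and 0 increased with Ento+AZD, and of the 51 tested members with a promoter record but no match, 11 decreased and 4 increased. For the ETS-type motif 4 of 21 members with a match and 13 of 46 without decreased. These were 4 of 10 and 13 of 57 for the YY1-type motif, and 1 of 7 and 16 of 60 for the E-box. Increases with and without a match were 0 and 4 (ETS-type), 1 and 3 (YY1-type) and 0 and 4 (E-box). Among all genes tested, 20.8% decreased and 19.2% increased. The differences between the members with and without a match were not tested for any motif. The share among all genes with a match was not computed, and a match is not evidence of binding.

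With Ento+AZD, 19 of the 82 members were lower and 4 were higher than with DMSO (edgeR quasi-likelihood test, Benjamini-Hochberg adjusted p under 0.05 over all genes). The lower members came from all 5 complexes and those with the largest decreases were SDHA, NDUFC1, NDUFA4L2, UQCRHL, NDUFB4, COX8A and UQCRH, while NDUFA6-DT, NDUFV3, ATP5F1E and NDUFB2 were higher. The members called made up 28%, against 40% of all 16835 genes tested. By direction, 23.2% of the members and 20.8% of all genes were lower, and 4.88% of the members and 19.2% of all genes were higher. In this and the other comparisons 0 members were a DEG (adjusted p under 0.05 and a fold change over 2). Among all genes DEGs made up 8.32% for Ento+AZD against DMSO, 1.63% for Ento and 3.19% for AZD against DMSO, 3.35% for Ento+AZD against Ento, 1.68% against AZD and 0% for the interaction. The CPM of both groups did not overlap for 15 members (18.3%), against 39.2% of all genes, and 51 members had a log2 fold change below 0, against 48.9% of all genes.

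**Figure D1:**
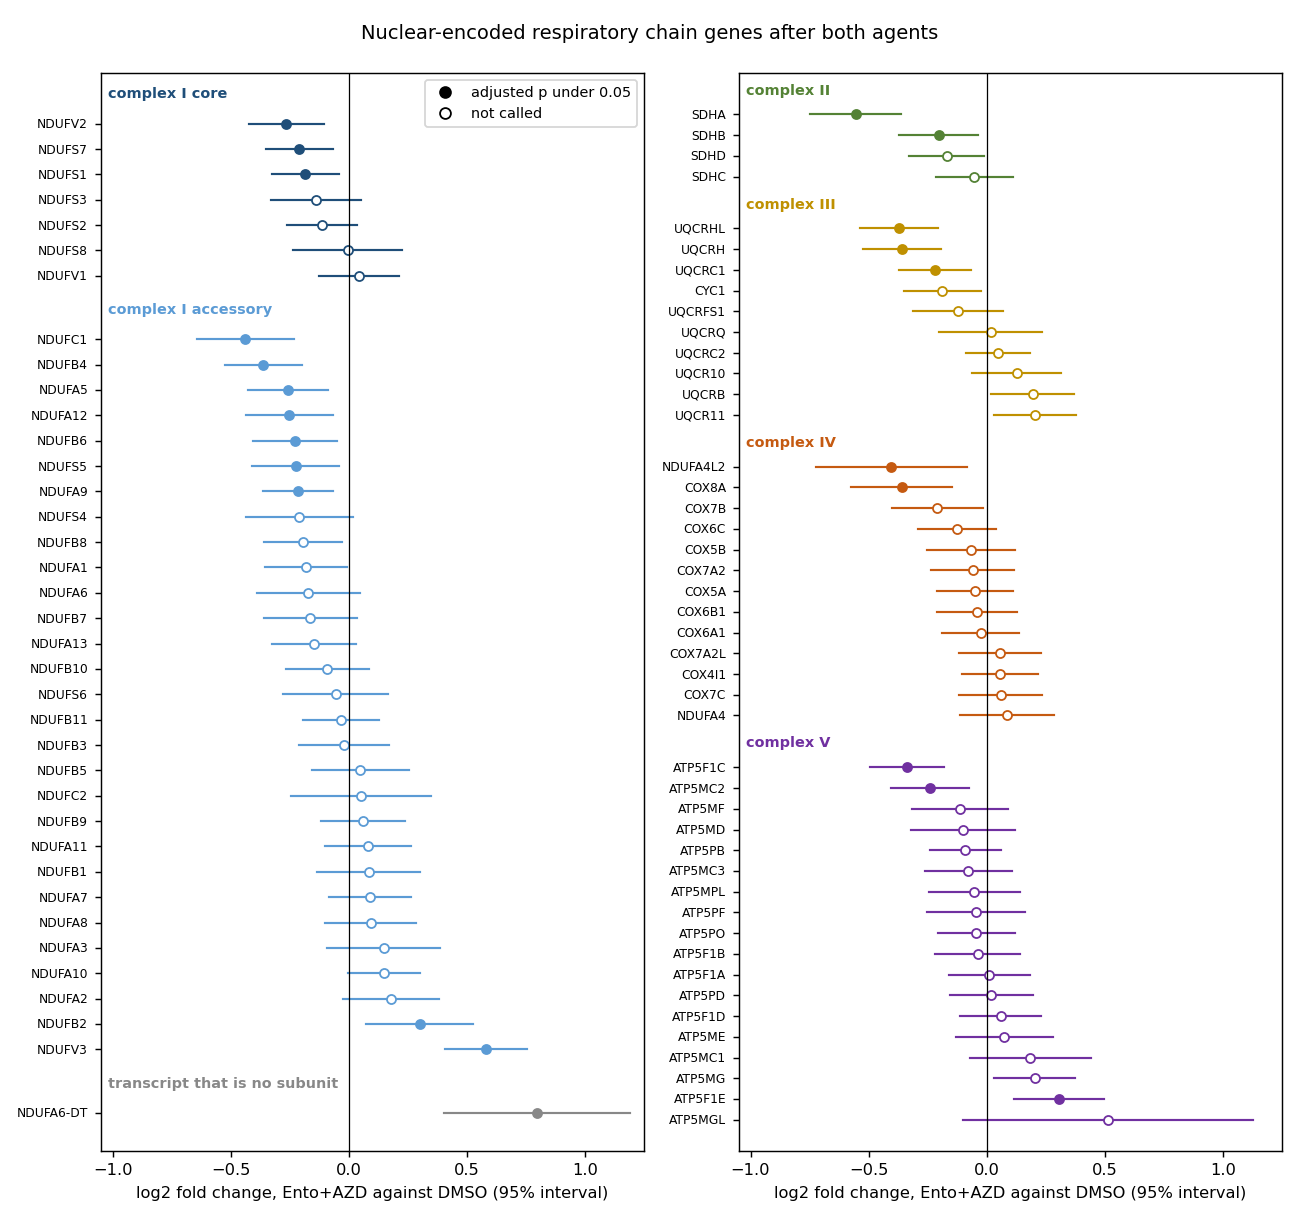
Log2 fold change of the 82 tested members for Ento+AZD against DMSO (x axis, bars are 95% intervals of the fit), ordered within each complex; filled points have an adjusted p under 0.05. SDHA lies lowest at -0.56 and, among subunit genes, NDUFV3 lies highest at 0.58.

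The changes were small. The median log2 fold change of the members was -0.053, against 0.010 over all genes, and 76 of 82 members (92.7%) had a 95% interval that lay within a 1.5-fold change in either direction, against 46.6% of all genes. Members were also more abundant, with a median of 89.8 CPM against 15.9 CPM, and the part of abundance in these shares was not tested. Of the 23 calls, 8 held without each of the 12 libraries in turn (SDHA, NDUFC1, NDUFB4, UQCRH, UQCRHL, ATP5F1C, NDUFV3 and NDUFA6-DT), and NDUFV3 and NDUFC1 held under all 19 alternatives. Without Ento+AZD replicate 2 the median of the members was 0.014, with 37 of 82 below 0, and 10 members were called lower and 7 higher. Without the replicate number in the model, 1 member was called lower and 1 higher, and 14.2% of all genes were called. The split of 4 higher and 19 lower became 7 and 14 with upper-quartile scaling and 3 and 24 on total counts.

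The largest decrease was that of SDHA in complex II. SDHA, the flavoprotein subunit that oxidises succinate (chr5:218303-257082 on GRCh38, + strand), stood at 98.6, 99.5 and 145.5 CPM in DMSO replicates 1 to 3, at 92.0, 77.9 and 119.0 CPM with Ento, at 111.2, 84.1 and 117.7 CPM with AZD and at 75.9, 67.9 and 87.8 CPM with Ento+AZD. Every Ento+AZD library was below every DMSO library, while the Ento and AZD libraries overlapped both of these groups. SDHA fell by 32.0% against DMSO (log2 fold change -0.56 ± 0.089 SE, adjusted p = 0.000267 by edgeR), and it was lower in 3 of 3 pairs. DMSO replicate 3 was the highest library, and without it the log2 fold change was -0.49 (edgeR, adjusted p = 0.00152). Without the replicate term the call was lost at an almost equal size of change (-0.57, edgeR, adjusted p = 0.0669). SDHA shares sequence with other genes. Of the 75-base windows of its transcript 68.5% also occur in other genes, 65.9% in 1 gene without a symbol. Its 3 pseudogene rows held 25181 counts beside 25665 for SDHA. With those counts added the decrease was smaller, at a log2 fold change of -0.36 (edgeR, adjusted p = 0.00457).

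SDHB, the iron-sulphur subunit, had 92.6, 98.4 and 90.0 CPM with DMSO and 86.0, 73.5 and 84.6 CPM with Ento+AZD, and fell by 13.2% (edgeR, adjusted p = 0.0493). Its groups did not overlap, but the call held in 2 of the 12 fits that left out a library, and was weakest without Ento+AZD replicate 2 (edgeR, adjusted p = 0.247). SDHD and SDHC, the membrane anchors, were not called, with log2 fold changes of -0.17 ± 0.074 and -0.054 ± 0.076 (SE). Summed over the 4 genes, complex II lay at 342 to 385 CPM with DMSO and at 279 to 318 CPM with Ento+AZD, so that these groups did not overlap. The core subunits of complex I did not overlap either (710 to 732 CPM with DMSO and 590 to 699.5 CPM with Ento+AZD), while the accessory subunits and complexes III, IV and V did.

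**Figure D2:**
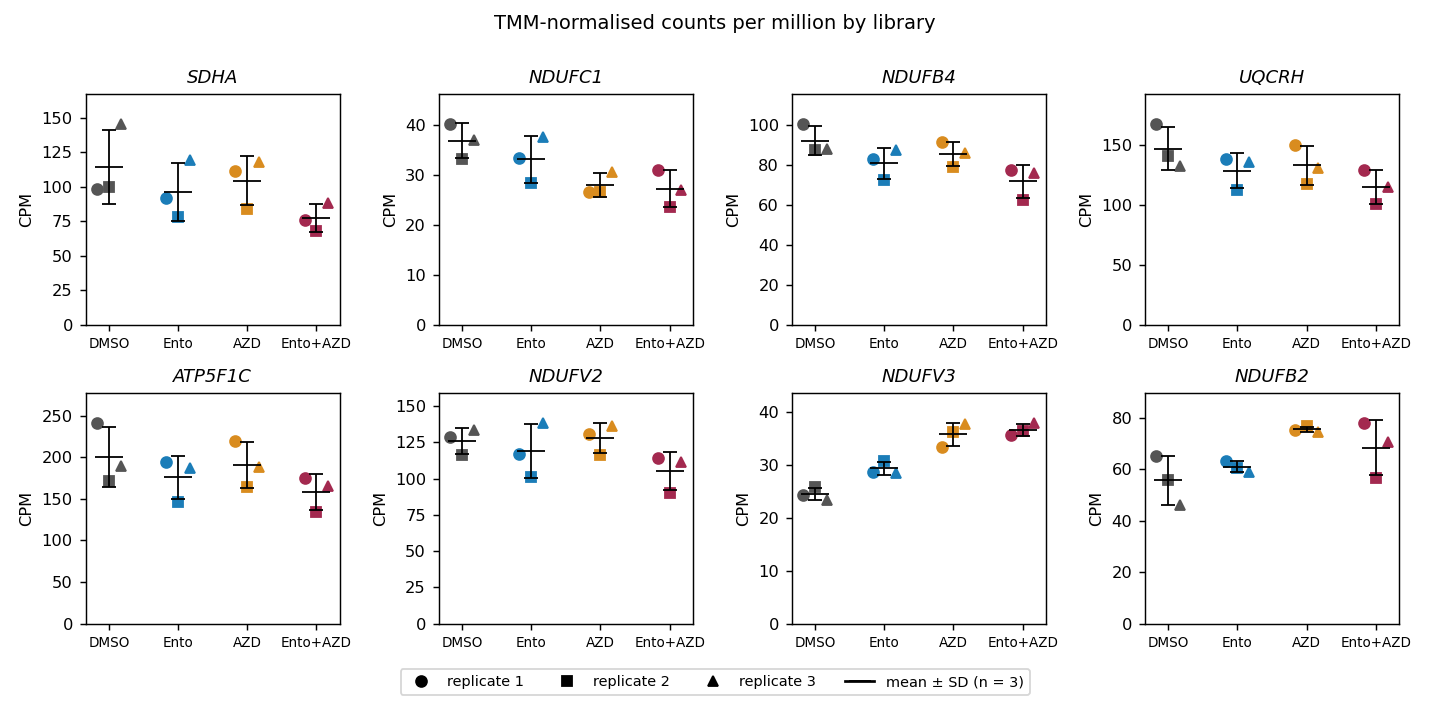
TMM-normalised CPM (y axis, from 0) of 8 members in the 12 libraries by treatment group; symbols mark the replicate number and bars the mean ± SD (n = 3). SDHA, NDUFC1, NDUFB4, UQCRH and NDUFV2 are lower in every Ento+AZD library than in every DMSO library, ATP5F1C and NDUFB2 overlap, and NDUFV3 is higher in every AZD and Ento+AZD library than in every DMSO library.

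Among the 7 core subunits of complex I, which carry the flavin and the iron-sulphur clusters, 3 were lower and 0 higher with Ento+AZD. NDUFV2, an iron-sulphur subunit of the NADH-binding part, had 128.5, 116.4 and 133.8 CPM with DMSO and 114.5, 90.2 and 111.6 CPM with Ento+AZD. The groups did not overlap, and NDUFV2 fell by 16.7% (log2 fold change -0.26 ± 0.074 SE, edgeR, adjusted p = 0.0112). Of its transcript windows 89.0% also occur in an overlapping gene, and a pseudogene row held 16946 counts beside 31079 for NDUFV2, so its counts are uncertain. With pseudogene counts added, all 23 calls of this comparison held. NDUFS7 fell by 13.5% (127 ± 2.86 to 110 ± 6.36 CPM, SD, n = 3) and NDUFS1 by 0.18 ± 0.066 SE on the log2 scale (129 ± 4.43 to 113 ± 9.94 CPM, SD, n = 3). NDUFV1, the flavin-carrying partner of NDUFV2, and NDUFS8 were not called, at log2 fold changes of 0.044 ± 0.079 and -0.0056 ± 0.11 (SE).

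Of the 29 accessory subunits of complex I, 7 were lower and 2 higher. NDUFC1, a small membrane-arm subunit (chr4:139266880-139302551, - strand), had 40.1, 33.2 and 36.9 CPM with DMSO, 33.2, 28.3 and 37.6 CPM with Ento, 26.6, 26.5 and 30.6 CPM with AZD and 31.0, 23.6 and 26.9 CPM with Ento+AZD. All libraries with AZD, alone or combined, were below all DMSO libraries, and the level decreased by 26.2% with Ento+AZD (log2 fold change -0.44 ± 0.096 SE, edgeR, adjusted p = 0.00257) and decreased by 24.1% with AZD alone (edgeR, adjusted p = 0.0103). An exon of NAA15 lies on the opposite strand of NDUFC1, and the counting is not stated to use strand.

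NDUFB4, a membrane-arm subunit (chr3:120596328-120602507, + strand), had 100.6, 87.6 and 88.1 CPM with DMSO and 77.3, 62.3 and 76.0 CPM with Ento+AZD, without overlap. It fell by 22.2% (log2 fold change -0.36 ± 0.076 SE, edgeR, adjusted p = 0.00186). NDUFA5, NDUFA12, NDUFB6, NDUFS5 and NDUFA9 were lower as well, with decreases on the log2 scale from -0.26 (NDUFA5) to -0.22 (NDUFA9), and the calls of these 5 were lost without at least 1 library. NDUFS4, a subunit known for its mutations in Leigh syndrome, was not called (-0.21 ± 0.11 SE, edgeR, adjusted p = 0.129).

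NDUFV3, an accessory subunit of the NADH-binding part, rose. Its level (chr21:42879644-42913304, + strand) was 24.4, 25.8 and 23.5 CPM with DMSO, 28.7, 30.9 and 28.5 CPM with Ento, 33.3, 36.3 and 37.7 CPM with AZD and 35.8, 36.4 and 38.0 CPM with Ento+AZD. The DMSO libraries were below all others, and the Ento libraries lay between them and the libraries with AZD. NDUFV3 was 49.5% higher with Ento+AZD than with DMSO (log2 fold change 0.58 ± 0.081 SE, edgeR, adjusted p = 9.77e-05) and 45.7% higher with AZD (edgeR, adjusted p = 0.000802). Without the replicate term the adjusted p for Ento+AZD was 0.00314 (edgeR). Ento alone was not called (0.26 ± 0.082 SE, edgeR, adjusted p = 0.0663).

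NDUFB2, a further accessory subunit, had 65.1, 55.6 and 46.2 CPM with DMSO, 75.3, 76.6 and 74.6 CPM with AZD and 77.9, 56.8 and 70.4 CPM with Ento+AZD. The AZD libraries lay above all DMSO libraries, while Ento+AZD overlapped them through its replicate 2. Its log2 fold change was 0.30 ± 0.11 SE with Ento+AZD (edgeR, adjusted p = 0.0353), a call lost on total counts (edgeR, adjusted p = 0.0599), without filterByExpr, without the replicate term, and without DMSO replicate 3 (edgeR, adjusted p = 0.183), Ento replicate 1 or Ento+AZD replicate 1 or 3. Exon sequence of BRAF and NDUFB2-AS1 overlaps NDUFB2 on the opposite strand, and the counting is not stated to use strand. NDUFA6-DT was low throughout, at 1.75, 3.07 and 1.89 CPM with DMSO and 3.62, 4.72 and 3.16 CPM with Ento+AZD, without overlap. Its log2 difference was 0.79 ± 0.18 SE (edgeR, adjusted p = 0.00358).

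In complex III, 3 of 10 members were lower with Ento+AZD and 0 were higher. UQCRH, the hinge protein that contacts cytochrome c1, had 167.6, 140.8 and 132.6 CPM with DMSO and 128.8, 100.8 and 114.7 CPM with Ento+AZD. It fell by 22.0% without overlap of the groups (log2 fold change -0.36 ± 0.076 SE, edgeR, adjusted p = 0.00206), and its near-copy UQCRHL fell by 22.8%. UQCRHL held 32.4 ± 0.94% (SD, n = 3) of the counts of both genes with DMSO and 32.1 ± 0.58% (SD, n = 3) with Ento+AZD, and 41.1% of its transcript windows also occur in UQCRH, so that reads from the shared part cannot be assigned to either gene. UQCRC1, a core protein of the matrix side, fell by 14.2% (edgeR, adjusted p = 0.0239). UQCR11 and UQCRB, small subunits, had the highest values, 0.20 ± 0.081 and 0.19 ± 0.083 (SE), and were not called (edgeR, adjusted p = 0.0604 and 0.0761).

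In complex IV, 2 of 13 tested members were lower. COX8A, a small structural subunit, had 90.3, 80.7 and 107.4 CPM with DMSO and 77.1, 57.5 and 83.8 CPM with Ento+AZD. These groups overlapped, with a log2 fold change of -0.36 ± 0.10 SE (edgeR, adjusted p = 0.0104), and the call was lost without DMSO replicate 2 (edgeR, adjusted p = 0.0668) and without Ento+AZD replicate 3 (edgeR, adjusted p = 0.0653). NDUFA4L2, a paralogue of the complex IV subunit NDUFA4 known as a hypoxia-induced gene, fell by 24.4% (edgeR, adjusted p = 0.0442), and was lower in 2 of 3 pairs, with 30.2, 29.3 and 32.5 CPM with DMSO and 22.7, 29.4 and 18.3 CPM with Ento+AZD. Exon sequence of SHMT2 overlaps NDUFA4L2 on the opposite strand, so without a stated strand setting its counts are uncertain. NDUFA4 itself had a log2 fold change of 0.085 ± 0.093 (SE) and was not called, as were COX4I1, COX7C and COX7A2L, which lay between 0.054 and 0.058.

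In complex V, 2 of 18 members were lower and 1 was higher. ATP5F1C, the central shaft subunit gamma (chr10:7788147-7807815, + strand), had 241.1, 171.9 and 189.2 CPM with DMSO, 194.0, 146.3 and 187.2 CPM with Ento, 219.3, 164.0 and 188.0 CPM with AZD and 174.8, 134.5 and 165.5 CPM with Ento+AZD. Replicate 1 was highest in each group and the groups overlapped, while the decrease was seen in 3 of 3 pairs and ATP5F1C fell by 20.9% (log2 fold change -0.34 ± 0.072 SE, edgeR, adjusted p = 0.00216). Without the replicate term the call was lost (edgeR, adjusted p = 0.154). ATP5F1E, the epsilon subunit, rose from 40.3 ± 6.32 to 49.7 ± 5.77 CPM (SD, n = 3; log2 fold change 0.31 ± 0.09 SE, edgeR, adjusted p = 0.0147), and 31.3% of its transcript windows also lie in TUBB1 of the same locus. A pseudogene row held 9985 counts beside 11816 for ATP5F1E, and its call held with them added but was lost without the replicate term, without DMSO replicate 3 and without Ento+AZD replicate 1 or 3. ATP5F1A and ATP5F1B, the alpha and beta subunits of the catalytic head, stood at 841 ± 28.7 and 1023 ± 35.8 CPM with DMSO and 852 ± 94.6 and 1000.3 ± 142 CPM with Ento+AZD (SD, n = 3) and were not called.

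**Figure D3:**
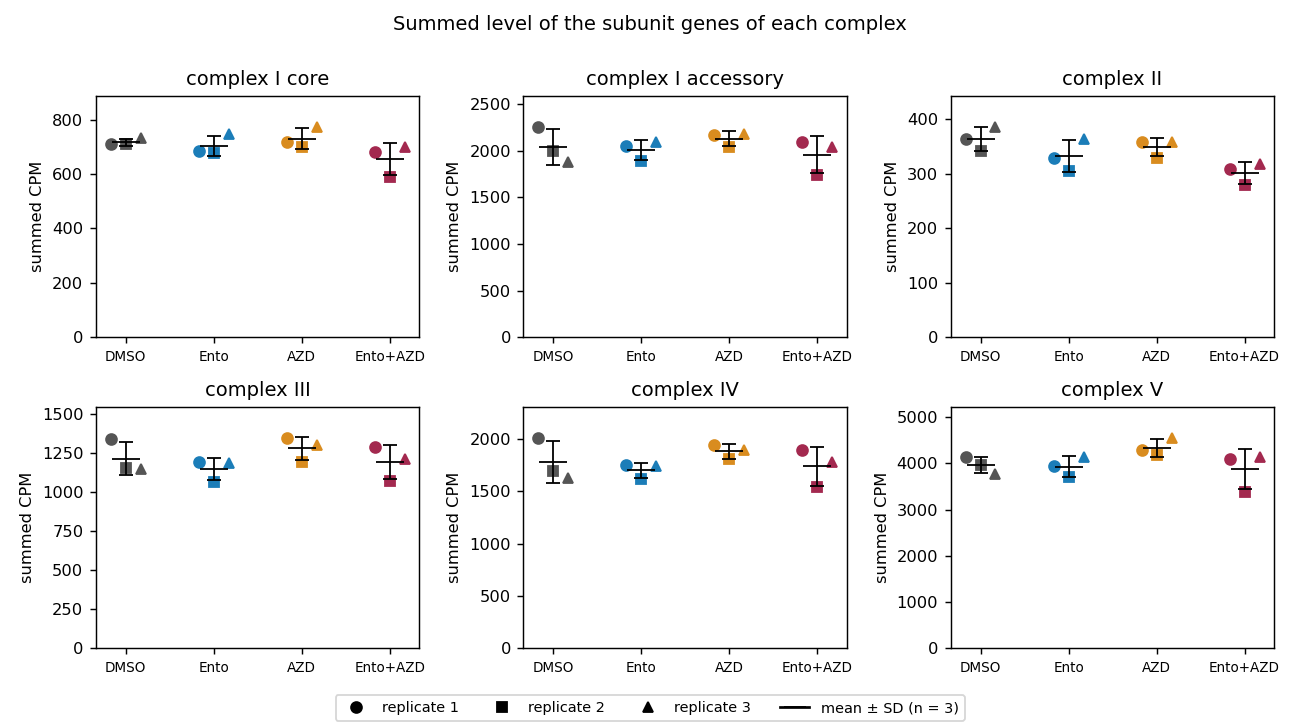
Summed CPM (y axis, from 0) of the members of each complex in the 12 libraries by treatment group; symbols mark the replicate number and bars the mean ± SD (n = 3). For complex II every Ento+AZD library (279 to 318 CPM) is below every DMSO library (342 to 385 CPM), and Ento+AZD replicate 2 is the lowest library of its group in all 6 panels.

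The comparisons with DMSO share the same 3 DMSO libraries, so each is given by its own values. AZD alone gave mostly higher calls: 7 members were higher and 2 lower than with DMSO, together 11% against 22.2% of all genes. By direction these were 8.54% and 2.44% of the members, compared with 9.57% and 12.7% of all genes. The median log2 fold change of the members was 0.070, against 0.0055 for all genes, and 23 of 82 lay below 0, against 49.3% of all genes. The groups did not overlap for 19 members (23.2%), against 24.4% of all genes. The higher members were NDUFV3, NDUFB2, UQCR11, ATP5F1E, ATP5MG, ATP5F1A and NDUFA10, and the lower ones NDUFC1 and ATP5MC2. UQCR11 had 139.1, 117.8 and 104.8 CPM with DMSO and 156.3, 144.8 and 158.8 CPM with AZD, without overlap (log2 fold change 0.35 ± 0.081 SE, edgeR, adjusted p = 0.00825). NDUFB2 was 36.6% higher (edgeR, adjusted p = 0.00882). ATP5F1A, at 852, 863 and 809 CPM with DMSO and 973, 938 and 1071 CPM with AZD, was 17.8% higher without overlap (edgeR, adjusted p = 0.0468).

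Most of these AZD calls depended on single libraries. NDUFV3 was called without each of the 12 libraries, whereas without AZD replicate 3 it was the sole member called higher, and without DMSO replicate 2 the number of higher members was 11. The median log2 fold change of the members was -0.010 without DMSO replicate 3 and 0.12 without DMSO replicate 2. Without the replicate term 1 member (NDUFV3) was higher and 0 were lower. On total counts the split was 4 higher and 2 lower.

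Ento alone gave 0 calls among the members by edgeR, against 8.32% of all genes (4.66% higher and 3.66% lower), and 8 of 82 (9.76%) at an unadjusted p under 0.05, against 24.3% of all genes. DESeq2 also called 0. Of the members 53 had a log2 fold change below 0, against 48.3% of all genes, with 42 without DMSO replicate 1 and 73 without DMSO replicate 3. Their median was -0.047 and ranged from -0.12 to -0.0023 without these libraries. The CPM of 6 members (7.32%) did not overlap between the groups, against 15.1% of all genes. The smallest adjusted p belonged to NDUFV3, followed by SDHA (log2 fold change -0.25 ± 0.088 SE, edgeR, adjusted p = 0.0944) and NDUFS4 (-0.29 ± 0.11 SE, edgeR, adjusted p = 0.104). The NDUFS4 libraries stood at 24.1, 18.5 and 18.2 CPM with DMSO and at 17.5, 16.6 and 15.5 CPM with Ento, without overlap. In 79 of 82 members the 95% interval lay within a 1.5-fold change, against 60.4% of all genes. Leaving out DMSO replicate 1 or 3 gave 1 member called lower.

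**Figure D4:**
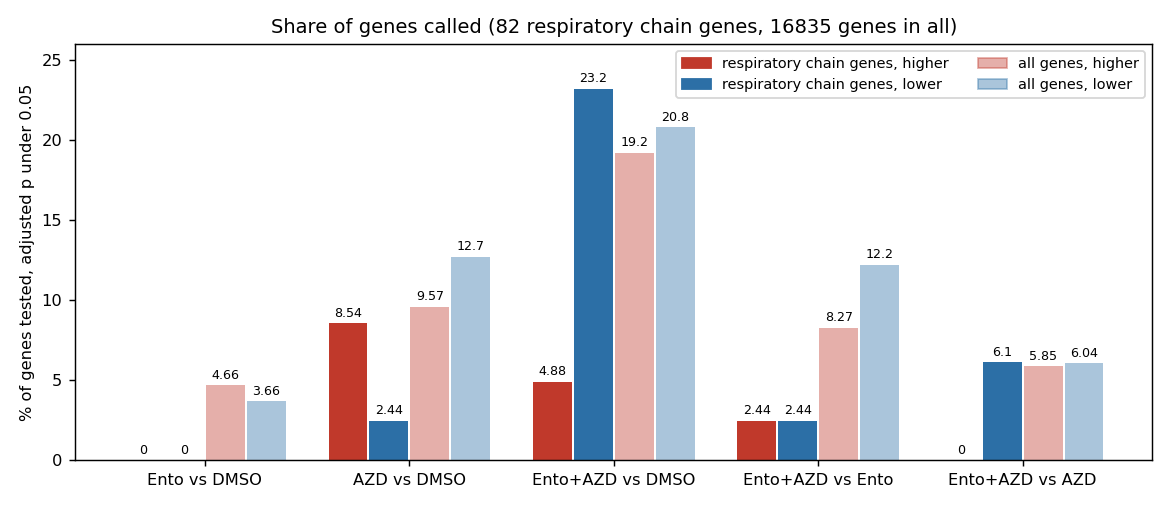
Share of the 82 members and of all 16835 genes tested (y axis, percent) called higher or lower at an adjusted p under 0.05 in 5 comparisons. The members reach the share of all genes for lower calls with Ento+AZD against DMSO (23.2% and 20.8%) and against AZD (6.1% and 6.04%), and lie below it in the other bars.

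Adding Ento to AZD was compared directly through Ento+AZD against AZD. Of the members 5 were lower and 0 higher (SDHA, NDUFV2, ATP5F1C, NDUFS1 and NDUFB4), 6.1% against 11.9% of all genes, of which 6.04% were lower and 5.85% higher. The groups did not overlap for 15 members (18.3%), against 17.1% of all genes. SDHA showed the largest decrease (log2 fold change -0.43 ± 0.089 SE, edgeR, adjusted p = 0.00866), although its groups overlapped at 84.1 CPM in AZD replicate 2 and 87.8 CPM in Ento+AZD replicate 3. Of the 5, SDHA and NDUFV2 had the most counts on pseudogene rows, 25181 and 16946. With pseudogene counts added, 4 of the 5 calls held. NDUFS1, an iron-sulphur subunit, had 131.4, 129.1 and 138.9 CPM with AZD and 111.7, 104.3 and 124.0 CPM with Ento+AZD, without overlap (log2 fold change -0.23 ± 0.066 SE, edgeR, adjusted p = 0.035). In all, 77 of 82 members (93.9%) had a log2 fold change below 0, against 50.4% of all genes, and the median was -0.13 against -0.0022. The 5 above 0 were UQCRB, UQCR10, NDUFA7, NDUFV3 and NDUFA6-DT, none of which was called. The members share their libraries, so this count is a description.

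This small common shift depended in size on Ento+AZD replicate 2. Without that library 60 of 82 members lay below 0, and the difference of the members' median from that of all genes was -0.093, against -0.132 in the main fit. With upper-quartile scaling 68 lay below 0, where the median of all genes was 0.032 and the difference was -0.133. The number of members called lower ranged from 0 without AZD replicate 1 to 16 without DMSO replicate 3, was 1 without Ento+AZD replicate 2, was 8 by DESeq2 and was 0 without the replicate term.

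**Figure D5:**
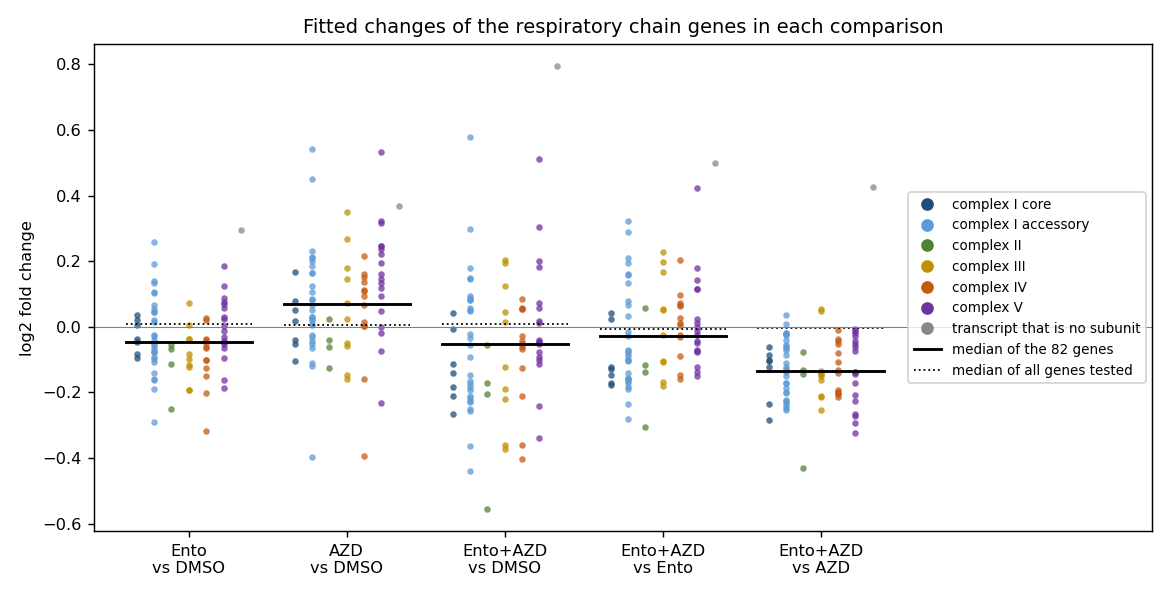
Log2 fold change (y axis) of each of the 82 members in 5 comparisons, coloured by complex; solid lines are the medians of the members and dotted lines those of all genes tested. The medians are -0.047, 0.070, -0.053, -0.028 and -0.13 from left to right, and 77 of 82 points lie below 0 for Ento+AZD against AZD.

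Against Ento alone, the combination gave 2 higher members (NDUFV3 and NDUFA10) and 2 lower ones (SDHA and NDUFA9), 4.88% against 20.4% of all genes (8.27% higher and 12.2% lower). The groups did not overlap for 8 members (9.76%), against 23.2% of all genes, and 48 members lay below 0, against 51.1%. Without Ento+AZD replicate 2 this was 36 members, and the median of the members turned from -0.028 to 0.026. NDUFA10, an accessory subunit of the nucleoside kinase fold, had 83.0, 89.5 and 89.6 CPM with Ento and 109.9, 102.6 and 107.9 CPM with Ento+AZD, without overlap, and was 22.3% higher (edgeR, adjusted p = 0.0109). SDHA fell by 19.1% (edgeR, adjusted p = 0.0268), and its pseudogene rows held 25181 counts beside 25665 for SDHA. With pseudogene counts added, 3 of the 4 calls held, and 1 member was lower. No call of this comparison held without each library, and 0 remained without the replicate term. For the interaction of both agents 0 members and 0 of 16835 genes were called by edgeR, while DESeq2 called 0 members and 8 genes. At an unadjusted p under 0.05 there were 2 members (ATP5PF and NDUFA8), 2.44% against 9.81% of all genes, and 68 members lay below 0, against 52% of all genes, or 44 without DMSO replicate 3 and 54 without Ento+AZD replicate 2. A departure from additive log2 changes was not detected for any single member. The 95% interval of the interaction lay within a 1.5-fold change for 74 of 82 members.

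Some subunits have paralogues that replace one another between tissues, and SU-DHL-4 expressed the widespread forms in all groups. COX4I1 lay at 264 ± 19.1 CPM with DMSO (SD, n = 3) while COX4I2 had 0 counts in 12 libraries, and COX6A1 (157 ± 21.7 CPM) stood beside 0 counts of the muscle form COX6A2. COX6B1 lay at 139 ± 11.7 CPM and the testis form COX6B2 at 0 to 4 counts per library, COX7A2 at 97.2 ± 19.7 CPM and the muscle form COX7A1 at 0 to 3 counts. COX7A2L, which takes part in supercomplexes, had 141 ± 26.4 CPM with DMSO and no call in any comparison. The genes ATP5MC1, ATP5MC2 and ATP5MC3 encode the same mature c subunit of the ATP synthase rotor. Per kilobase of transcript, they made up 13.6 ± 2.29%, 70.6 ± 2.72% and 15.8 ± 0.582% of their sum with DMSO, and 17.8 ± 2.28%, 63.1 ± 4.21% and 19.1 ± 2.16% with AZD (SD, n = 3). Among the 3, ATP5MC2 was lower with AZD (log2 fold change -0.23 ± 0.077 SE, edgeR, adjusted p = 0.0424) and with Ento+AZD (-0.24 ± 0.077 SE, edgeR, adjusted p = 0.0226), with overlapping groups each time, and ATP5MC1 and ATP5MC3 were not called. The 4 pseudogene rows of ATP5MC2 held 10960 counts beside its 63530. With pseudogene counts added, 1 member was lower with AZD instead of 2. NDUFC1, the other member lower with AZD, has 0 pseudogene counts. All 23 calls for Ento+AZD against DMSO held.

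Levels per kilobase of transcript with DMSO differed widely within each complex. The median was 65.8 CPM per kb for the core and 97.2 for the accessory subunits of complex I, 58.6 for complex II, 84.5 for complex III, 148.4 for complex IV and 148.5 for complex V. Within complex V they ranged from 0.792 for ATP5MGL, a paralogue of subunit g, to 581 for ATP5F1B, and within complex I from 4.29 for NDUFV3 to 305 for NDUFA13. The lengths are those of 1 annotated transcript per gene, 5725 bases for NDUFV3 and 521 for NDUFA13. UQCRB, at 8459 bases, had the highest CPM of complex III (257) but 30.4 CPM per kb. Which transcripts the cells used, and the part of length in this spread, was not tested.

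Other genes of the pathway were examined as lists. Of the mobile and accessory factors, CYCS, the electron carrier cytochrome c, had 254.9, 247.7 and 248.4 CPM with DMSO, 256.7, 224.4 and 291.4 CPM with Ento, 319.8, 300.6 and 382.1 CPM with AZD and 280.4, 199.3 and 317.2 CPM with Ento+AZD. It was higher with AZD, whose libraries lay above all DMSO libraries (log2 fold change 0.40 ± 0.099 SE, edgeR, adjusted p = 0.0112), and lower with Ento+AZD than with AZD (-0.34 ± 0.099 SE, edgeR, adjusted p = 0.0377), although these groups overlapped. ATP5IF1, the inhibitor of ATP synthase, was higher with AZD (0.25 ± 0.076 SE, edgeR, adjusted p = 0.0279), and NDUFAB1, the acyl carrier protein of complex I, was lower with Ento+AZD than with AZD (-0.28 ± 0.083 SE, edgeR, adjusted p = 0.0423). With Ento+AZD against DMSO none of the 3 was called.

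Assembly factors moved in both directions with Ento+AZD against DMSO, a comparison in which 19.2% of all genes were higher and 20.8% lower. Of 6 factors of complex III 4 were higher (BCS1L, LYRM7, TTC19 and UQCC1) and 0 lower, and UQCC1 had a log2 fold change of 0.32 ± 0.075 SE (edgeR, adjusted p = 0.00415). Of 19 factors of complex I 3 were higher, led by NDUFAF8 (0.51 ± 0.12 SE, edgeR, adjusted p = 0.00395), and 0 lower. Of 27 factors of complex IV 4 were higher and 5 lower, with the copper chaperone COX17 at the lower end (35.5 ± 4.24 CPM with DMSO and 24.6 ± 4.36 CPM with Ento+AZD, SD, n = 3; -0.54 ± 0.092 SE, edgeR, adjusted p = 0.000439). Of 4 complex II factors 1 (SDHAF2) was higher, and ATPAF2 was higher and ATPAF1 lower among the 4 of complex V. For coenzyme Q synthesis 3 of 13 were higher and 1 lower, with COQ3 at the lower end (-0.83 ± 0.23 SE, edgeR, adjusted p = 0.0118).

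Of 14 TCA cycle enzymes 6 were lower with Ento+AZD than with DMSO (IDH2, SUCLG2, DLST, FH, SUCLA2 and IDH3B) and 2 were higher. Among all genes tested 20.8% were lower and 19.2% higher in this comparison. OGDH, a subunit of the oxoglutarate dehydrogenase complex, had the largest increase (log2 fold change 0.52 ± 0.077 SE, edgeR, adjusted p = 0.000146). The largest change was that of IDH2, the mitochondrial NADP-dependent isocitrate dehydrogenase, with 130.2, 97.8 and 138.0 CPM with DMSO, 92.6, 58.5 and 120.3 CPM with Ento, 75.6, 41.8 and 73.8 CPM with AZD and 48.6, 36.5 and 58.1 CPM with Ento+AZD. It fell with Ento (-0.47 ± 0.10 SE), with AZD (-0.97 ± 0.10 SE) and with Ento+AZD (-1.37 ± 0.10 SE, edgeR, adjusted p = 2.13e-06), and it is a DEG for Ento+AZD. Of 13 tested regulators of mitochondrial gene expression 2 were higher (ESRRA and PPARGC1B) and 2 lower (NRF1 and GABPA) with Ento+AZD, against 19.2% and 20.8% of all genes. NRF1 had 29.3 ± 4.12 CPM with DMSO and 22.8 ± 4.04 CPM with Ento+AZD (SD, n = 3), overlapping groups with a log2 fold change of -0.36 ± 0.091 SE (edgeR, adjusted p = 0.00584). GABPA had 99.0, 90.9 and 102.2 CPM with DMSO and 82.1, 84.5 and 77.8 CPM with Ento+AZD, without overlap (-0.26 ± 0.082 SE, edgeR, adjusted p = 0.0214). PPRC1 and TFAM were not called in the 3 comparisons with DMSO.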

How the data were processed

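Polyadenylated RNA of 12 SU-DHL-4 libraries (4 groups of 3) was sequenced as single reads. The authors removed adapters (CutAdapt, run by TrimGalore), mapped reads to GRCh38.p13 with Rsubread and deposited raw counts per gene symbol; the strand setting and the treatment of reads matching several genes are not given in the sources used here. A deposited table of log2 values was not used. Per the file headers, counts were matched to groups and replicate numbers by title.

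Counts were tested with edgeR 4.0.16 (limma 3.58.1) in R 4.3.3, after filterByExpr by group (minimum count 10, minimum total 15) and TMM, in a model of treatment plus replicate number without an intercept. The study's model held treatment and batch, and taking the replicate number as the batch is an inference made here. Contrasts used the quasi-likelihood F-test with Benjamini-Hochberg adjustment over 16835 genes; SE is the absolute log2 fold change over the square root of F. Levels are TMM-normalised CPM, in which 1 count is 0.0393 to 0.0564 CPM. Alternatives were DESeq2 1.42.0, no replicate term, RLE, upper-quartile or no scaling beyond total counts, no filterByExpr, pseudogene counts added, and each library left out. The tests were tested on simulated data. Libraries of a group differed by more than sampling noise (chi-square per degree of freedom 8.57 to 51.8).

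Deviations from the group means correlated at 0.213 to 0.703 between libraries of the same number (18 pairs) and at -0.627 to 0.325 otherwise (36 pairs), so the numbers, which come from the labels, were treated as pairing the libraries. The members and lists were chosen with earlier results of these data known. Named were the 2 highest and 2 lowest members of each complex (core and accessory subunits of complex I apart) for Ento+AZD against DMSO, the 3 smallest adjusted p of each contrast, isoform sets, the largest called member of each list and 5 regulators; other called members were named after their values were seen. Coordinates are of GENCODE v44 on GRCh38, promoters of RefSeq on GRCh38.p14. Of the symbols, ATP5MD and ATP5MPL are older names. Not every gene of the pathway lists is reported here.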

Additional observations from a re-analysis of the deposited data

How the results depend on the processing

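The replicate number pairs the libraries, and without this replicate block the members called fell to 1 higher and 0 lower for AZD against DMSO, to 1 higher and 1 lower for Ento+AZD against DMSO, to 0 higher and 0 lower against Ento and to 0 lower against AZD. DESeq2 gave 8 lower members for Ento+AZD against AZD. Upper-quartile scaling gave 7 higher members for Ento+AZD against DMSO, 4 higher against Ento (2 lower, a split of 2 and 2 by TMM) and 3 lower against AZD, and total counts gave 4 higher members for AZD. Without filterByExpr, and likewise with pseudogene counts added, 1 member was lower for AZD, and the latter left 1 lower against Ento.

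Leaving out 1 library at a time, the members called ranged for Ento+AZD against DMSO from 10 (without DMSO replicate 2, among others) to 28 (without DMSO replicate 3) lower and from 2 to 8 (without DMSO replicate 1) higher. For AZD against DMSO they ranged from 1 (without AZD replicate 3) to 11 (without DMSO replicate 2) higher and from 1 to 3 lower, and for Ento from 0 to 1 lower. Against Ento they ranged from 0 to 6 (without DMSO replicate 3) higher and from 0 to 3 lower, and against AZD from 0 (without AZD replicate 1) to 16 (without DMSO replicate 3) lower. The medians of the members moved by less than their spread over the 3 pairs in every alternative, although for Ento+AZD against DMSO they ranged from -0.14 to 0.014 over the left-out libraries, and for AZD from -0.010 to 0.12. The cause of these shifts was not tested. No result reversed a call in direction. Over all genes, the share called without the replicate block was 0.214%, 1.94% and 14.2% for Ento, AZD and Ento+AZD against DMSO, 1.22% against Ento and 0.101% against AZD. Libraries of a group differed by more than counting error, and the part of depth in these comparisons was not tested.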
